A study of Saccharomyces cerevisiae with 6 samples.

Results

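The large subunit of the yeast cytosolic ribosome is described here through its protein genes, meaning the genes whose symbol is RPL followed by a digit and the stalk protein genes RPP0, RPP1A, RPP1B, RPP2A and RPP2B. The annotation of Saccharomyces cerevisiae holds 81 such genes, which fall into 46 proteins by symbol, 35 with an A and a B gene and 11 with a single gene. Of the 81 genes, 47 had at least 1 probe set that names them alone, out of 5656 genes named on the arrays, and 32 more were named only by probe sets that list both copies of a pair. Of the 47 genes, 33 were read by a probe set with the plain suffix of the array design. The other 14 had a suffix (i or f) that in this kind of design marks probe sets sharing probes or sequence with related genes. How much of their signal comes from the other copy was not tested. There were 38 probe sets for 22 pairs, and they are given apart from the 47 genes.

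Total RNA of yeast grown at 30 °C was measured on 6 single-colour Affymetrix arrays. Cells lacking FHL1 were measured on 2 arrays, cells lacking FHL1 together with IFH1 (the double deletion) on 2 and wild type (WT) on 2, 1 array of each from a first and 1 from a second experiment. Sources used here do not give the strain background, the deletion markers, the medium or the number of clones. Nor do they say that arrays of a group came from separate cultures. The p-values reflect the spread between arrays, which for WT may be technical. In each mutant the 2 arrays differ in the mating type marker MFA1, as given below, and the spread includes that difference. In RNA pooled from a whole culture, fewer cells of a kind and less RNA per cell cannot be told apart.

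Each large subunit joins ribosomal RNAs with ribosomal proteins, most of which yeast encodes in a pair of nearly identical genes. Their genes are transcribed together at a high rate. At most of their promoters the DNA-binding protein Rap1 and the forkhead-like protein Fhl1 sit together, and the coactivator Ifh1 is recruited through Fhl1 when cells grow well and leaves under stress or when TOR signalling stops.

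Values are log2 signals after each array was centred on its median over the probe sets that name 1 gene. Differences are log2, positive where the group named first is higher, and were tested with limma over 4242 genes, with p-values adjusted by Benjamini and Hochberg and a threshold of 0.05. Among all genes, 357 were lower and 546 higher in the FHL1 deletion, and 359 lower and 415 higher in the double deletion. Without centring these splits were 267 lower and 769 higher, and 269 lower and 521 higher, and the median of all genes then was 0.13 in the FHL1 deletion, against 0.02 with centring. FHL1 lay under the floor of 5.63 on every array and has no tested difference. Its deposited log2 values were 3.18 and 2.67 on the FHL1 deletion arrays, 2.66 and 2.89 on the double deletion arrays and 4.91 and 5.02 on the WT arrays, lower on all mutant arrays. IFH1 had 8.91 and 8.92 on the FHL1 deletion arrays, 5.63 and 5.63 on the double deletion arrays and 8.38 and 8.63 on the WT arrays, and in the double deletion it was at the floor on both arrays, at least 7.35-fold below WT and at least 9.75-fold below the FHL1 deletion. The arrays also form sets that the labels do not name. The second FHL1 deletion array, the first double deletion array and the first WT array held exactly equal values for 502 to 859 probe sets per pair of arrays (set A), whereas no other pair of arrays shared more than 1, and the remaining arrays, 1 of each group, are called set B. In set B both mutant arrays carried the mating type marker MFA1 at 12.87 and 12.83, against 7.26 in WT, whereas all arrays of set A had 7.30 to 7.86. The part of mating type in the results was not tested, and values within set A, where all 3 arrays have low MFA1, are given beside them.

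In the FHL1 deletion, 13 of the 47 large subunit genes were lower than in WT, none was higher and 34 did not pass the test. Of all genes, 8.42% were lower and 12.9% higher, and of the members 27.7% were lower. The largest falls were in RPL31B, RPL6B, RPL22B, RPL27B and RPL33B, each by more than 2-fold, and the smallest differences were in RPL38, RPP2B, RPL28 and RPL3. Both arrays of the mutant lay below both WT arrays for 33 of the 47 genes, against 29.5% of all genes. The median difference was -0.36, with quartiles of -0.59 and -0.12, against 0.02 over all genes. Within set A the median was -0.36 and within set B it was -0.33. With the scaling of the deposited values it was -0.25, and with quantile normalization -0.19. In relation to the median of all genes it was -0.38 with either centring or the deposited scaling and -0.26 after quantile normalization. The count of 13 rested on both WT arrays. It was 6 without the first WT array and 6 without the second. It was 26 with array set as a block and 20 over the 4 arrays with low MFA1. 

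**Figure D1:**
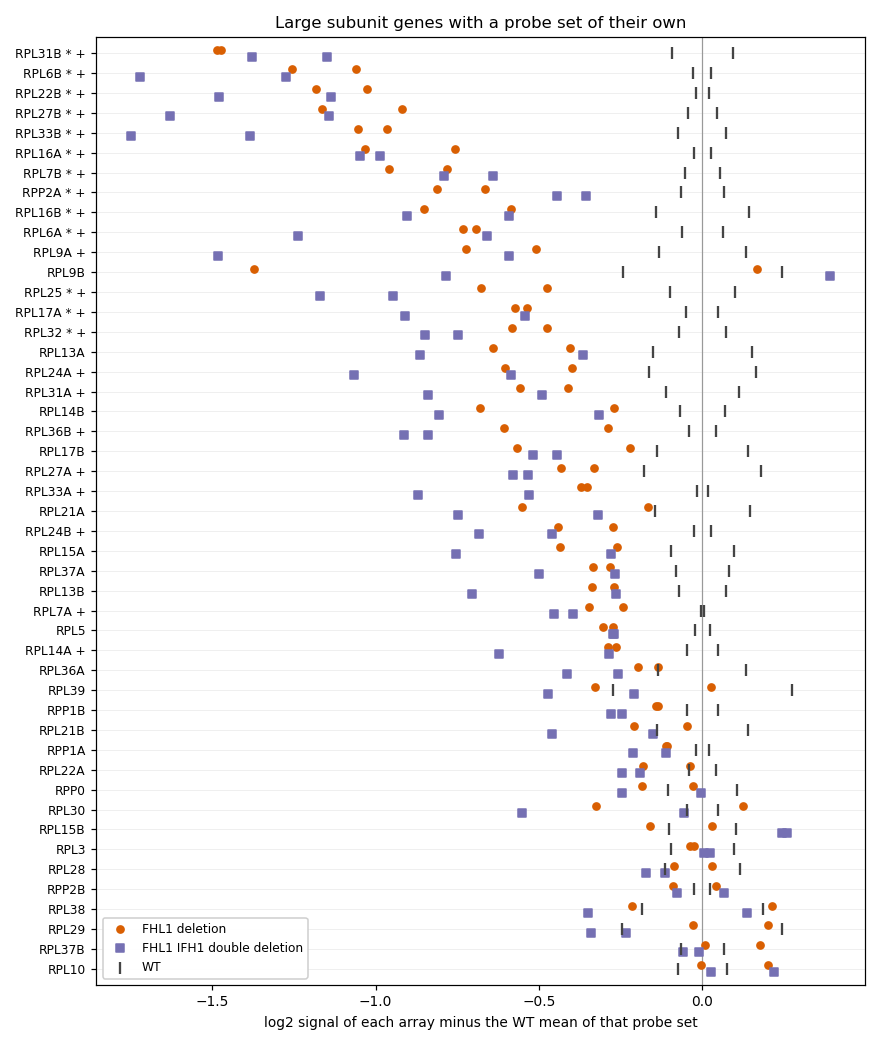
Log2 signal of each array minus the WT mean of the same probe set (horizontal axis) for the 47 large subunit genes with a probe set of their own (rows, ordered by the difference between the FHL1 deletion and WT). Orange circles are the 2 FHL1 deletion arrays, purple squares the 2 double deletion arrays and vertical ticks the 2 WT arrays; an asterisk marks genes lower for the FHL1 deletion (13) and a plus sign those lower for the double deletion (22). The upper rows lie far left of WT in both mutants, and the rows at the bottom overlap WT.

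In the double deletion, 22 of the 47 genes were lower than in WT, none was higher and 25 did not pass. Of all genes, 8.46% were lower and 9.78% higher, and of the members 46.8% were lower. The same 5 genes led, now with RPL33B and RPL6B first, and 8 genes fell by more than 2-fold, against 5 in the FHL1 deletion. Of all 4242 genes tested, 93 fell by more than 2-fold in the double deletion and 100 in the FHL1 deletion. Both mutant arrays lay below both WT arrays for 37 genes, against 29.4% of all genes. The median was -0.49 (quartiles -0.77 and -0.27), against 0.01 over all genes, and it was -0.63 within set A and -0.40 within set B. The first double deletion array decided much of the size. Without it the count was 11 and the median -0.37, and without the second it was 21 and -0.64. The count was 7 without the first WT array, 8 without the second, 10 with no filter on dim genes and 35 with array set as a block. After quantile normalization RPL10 was called higher, at 0.32 (adjusted p = 0.0378).

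All 13 genes that fell in the FHL1 deletion were among the 22 that fell in the double deletion (59.1% of these). Both comparisons use the same 2 WT arrays, so the overlap is not independent, and 6.13% of all genes were lower in both. The 13 are RPL6A, RPL6B, RPL7B, RPL16A, RPL16B, RPL17A, RPL22B, RPL25, RPL27B, RPL31B, RPL32, RPL33B and RPP2A. The 9 that passed against WT in the double deletion and did not in the FHL1 deletion are RPL7A, RPL9A, RPL14A, RPL24A, RPL24B, RPL27A, RPL31A, RPL33A and RPL36B. None of these 9 passed when the mutants were compared with each other.

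**Figure D2:**
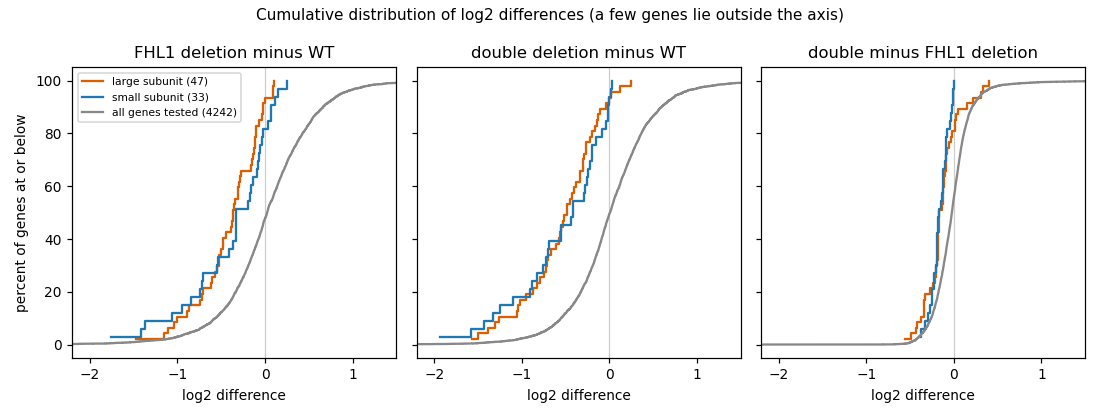
Cumulative percent of genes (vertical axis) at or below a log2 difference (horizontal axis) in the 3 comparisons. Orange is the 47 large subunit genes, blue the 33 small subunit genes and grey all 4242 genes tested. Against WT both subunits lie left of all genes, with large subunit medians of -0.36 and -0.49; between the mutants the large subunit median is -0.17.

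Some proteins join the large subunit early and cover its solvent side. Of 15 such genes with their own probe set, 7 were lower for the FHL1 deletion and 11 for the double deletion, with medians of -0.52 and -0.72, and all 15 had both mutant arrays below both WT arrays in either mutant. Among all genes 8.42% and 8.46% were lower, and 29.5% and 29.4% had both mutant arrays below both WT arrays. Of the 9 pair probe sets for such proteins, 1 was lower in each mutant (11.1%, against 10.1% and 8.33% of all probe sets), with medians of -0.34 and -0.53. RPL6B, one of the 2 genes for the solvent-side protein eL6, had 12.41 and 12.21 on the FHL1 deletion arrays, 11.75 and 12.19 on the double deletion arrays and 13.44 and 13.49 on the WT arrays. Both mutants lay at least 1 log2 unit under WT on every array, with differences of -1.16 (standard error 0.16, adjusted p = 0.00512) for the FHL1 deletion and -1.50 (standard error 0.16, adjusted p = 0.00279) for the double deletion. RPL33B, of the protein eL33, had 10.36 and 10.45 on the FHL1 deletion arrays, 9.67 and 10.03 on the double deletion arrays and 11.49 and 11.34 on the WT arrays. Its difference from WT was -1.01 (standard error 0.16, adjusted p = 0.00814) for the FHL1 deletion and -1.57 (standard error 0.16, adjusted p = 0.00256) for the double deletion, where no other of the 47 genes was lower. RPL16A, a gene for the protein uL13, had 12.40 and 12.12 on the FHL1 deletion arrays, 12.10 and 12.16 on the double deletion arrays and 13.12 and 13.18 on the WT arrays. All mutant arrays lay close together and well under WT, with -0.89 (standard error 0.12, adjusted p = 0.00493) for the FHL1 deletion and -1.02 (standard error 0.12, adjusted p = 0.00393) for the double deletion. RPL7B, of the protein uL30, had 11.07 and 11.25 on the FHL1 deletion arrays, 11.39 and 11.24 on the double deletion arrays and 12.08 and 11.97 on the WT arrays, with differences of -0.87 (standard error 0.13, adjusted p = 0.0063) for the FHL1 deletion and -0.72 (standard error 0.13, adjusted p = 0.0152) for the double deletion. RPL32, which has no second copy, had 12.04 and 12.15 on the FHL1 deletion arrays, 11.78 and 11.88 on the double deletion arrays and 12.70 and 12.56 on the WT arrays, and it differed by -0.53 (standard error 0.12, adjusted p = 0.0211) and -0.80 (standard error 0.12, adjusted p = 0.00708) in the same order. RPL13A, RPL13B and RPL14B passed in neither mutant, and RPL14A passed in the double deletion, at -0.45 (standard error 0.13, adjusted p = 0.0466). The least changed of the group was RPL36A at -0.17 for the FHL1 deletion (adjusted p = 0.337) and -0.34 for the double deletion (adjusted p = 0.085).

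The genes of the polypeptide exit tunnel, through which the nascent chain leaves the subunit, gave 3 falls of 6 with their own probe set for the FHL1 deletion and 4 for the double deletion, with medians of -0.52 and -0.69. Among all genes 8.42% and 8.46% were lower. Of the 7 pair probe sets for tunnel proteins, none was lower for the FHL1 deletion and 1 was for the double deletion, with medians of -0.09 and -0.17. Among all probe sets 10.1% and 8.33% were lower. RPL31B encodes eL31, which lies at the tunnel mouth where chaperones dock. It had 11.43 and 11.42 on the FHL1 deletion arrays, 11.52 and 11.75 on the double deletion arrays and 12.81 and 12.99 on the WT arrays, the mutant arrays being at least 1 unit below WT. The difference was -1.48 (standard error 0.13, adjusted p = 0.00227) in the FHL1 deletion, the lowest of all 47 genes, and -1.26 (standard error 0.13, adjusted p = 0.00256) in the double deletion. RPL25 encodes uL23, the docking protein for the signal recognition particle at the tunnel exit, and has no second copy. It had 11.25 and 11.45 on the FHL1 deletion arrays, 10.75 and 10.98 on the double deletion arrays and 12.02 and 11.83 on the WT arrays, so that the double deletion arrays were the lowest and WT the highest with no overlap between groups. Its differences from WT were -0.58 (standard error 0.15, adjusted p = 0.0349) for the FHL1 deletion and -1.06 (standard error 0.15, adjusted p = 0.00638) for the double deletion. RPL17A, of the tunnel wall protein uL22, had 13.55 and 13.52 on the FHL1 deletion arrays, 13.18 and 13.55 on the double deletion arrays and 14.04 and 14.14 on the WT arrays, with differences of -0.55 (standard error 0.13, adjusted p = 0.0241) and -0.73 (standard error 0.13, adjusted p = 0.0126) in the same order. RPL39, a small protein of the tunnel lining encoded by 1 gene, had 11.52 and 11.87 on the FHL1 deletion arrays, 11.64 and 11.37 on the double deletion arrays and 12.12 and 11.57 on the WT arrays. Its WT arrays overlapped those of both mutants, and it did not pass in the FHL1 deletion (-0.15, adjusted p = 0.654) or the double deletion (-0.34, adjusted p = 0.314).

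The stalk, an acidic protein arm that recruits and activates the translation GTPases, split by gene. RPP2A, which encodes one of the P2 proteins, had 12.39 and 12.24 on the FHL1 deletion arrays, 12.61 and 12.69 on the double deletion arrays and 12.98 and 13.11 on the WT arrays. It fell in the FHL1 deletion, at -0.74 (standard error 0.11, adjusted p = 0.00588), and in the double deletion, at -0.40 (standard error 0.11, adjusted p = 0.0456). The FHL1 deletion arrays were the lowest, and the mutants did not overlap. RPP2B, the gene of the other P2 protein, had 13.22 and 13.36 on the FHL1 deletion arrays, 13.38 and 13.24 on the double deletion arrays and 13.34 and 13.29 on the WT arrays, and its groups overlapped. RPP0, whose product anchors the stalk, gave -0.11 for the FHL1 deletion and -0.12 for the double deletion and passed in neither. RPP1A (-0.11 and -0.16) and RPP1B (-0.14 and -0.26), of the P1 proteins, did not pass either, with adjusted p = 0.0504 for RPP1B in the double deletion. The base of the stalk is formed by RPL12A and RPL12B, which 3 probe sets name together. They are given with the other pairs.

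For proteins near the peptidyl transferase centre 2 genes had their own probe set, and for the 5S rRNA partner 1. None of them passed, where among all genes 8.42% and 8.46% were lower. The probe set naming RPL2A and RPL2B, also near this centre, was lower in both mutants. Among all probe sets 10.1% and 8.33% were lower. It is given with the other pairs, as are the probe sets of RPL11A and RPL11B, of which none passed. RPL3, which reaches towards the catalytic centre and has no second copy, had 12.01 and 11.997 on the FHL1 deletion arrays, 12.04 and 12.06 on the double deletion arrays and 12.13 and 11.94 on the WT arrays. Its WT arrays overlapped those of both mutants. RPL10, the last protein to be fitted before the subunit can translate, had 13.43 and 13.23 on the FHL1 deletion arrays, 13.26 and 13.45 on the double deletion arrays and 13.16 and 13.31 on the WT arrays, with overlapping groups. For the FHL1 deletion RPL3 gave -0.03 (standard error 0.12, adjusted p = 0.883) and RPL10 0.10 (standard error 0.12, adjusted p = 0.582). For the double deletion RPL3 gave 0.01 (standard error 0.12, adjusted p = 0.948) and RPL10 0.12 (standard error 0.12, adjusted p = 0.509). RPL5, which escorts 5S rRNA into the subunit, had 12.94 and 12.97 on the FHL1 deletion arrays, 12.98 and 12.97 on the double deletion arrays and 13.22 and 13.27 on the WT arrays. All mutant arrays lay close together under both WT arrays, but the differences of -0.29 (standard error 0.09, adjusted p = 0.0553) for the FHL1 deletion and -0.27 (standard error 0.09, adjusted p = 0.0739) for the double deletion did not pass.

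Among proteins that join late is eL24, which forms a bridge to the small subunit. RPL24A had 12.08 and 11.88 on the FHL1 deletion arrays, 11.42 and 11.90 on the double deletion arrays and 12.65 and 12.32 on the WT arrays. RPL24B had 13.33 and 13.16 on the FHL1 deletion arrays, 12.92 and 13.14 on the double deletion arrays and 13.58 and 13.63 on the WT arrays, with both mutants under WT in either gene. Neither passed in the FHL1 deletion (-0.50 and -0.36), and both fell in the double deletion, with -0.83 (standard error 0.19, adjusted p = 0.0303) for RPL24A and -0.57 (standard error 0.11, adjusted p = 0.0175) for RPL24B. RPL29, encoded once, had 12.25 and 12.48 on the FHL1 deletion arrays, 12.05 and 11.94 on the double deletion arrays and 12.52 and 12.03 on the WT arrays, and its WT arrays differed by more than its groups did. It did not pass in the FHL1 deletion (0.09) or the double deletion (-0.29).

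The 15 remaining genes gave 2 falls for the FHL1 deletion and 4 for the double deletion, with medians of -0.31 in each. These falls are 13.3% and 26.7% of the 15, against 8.42% and 8.46% of all genes. RPL22B, the B gene of a protein that yeast can live without, had 9.16 and 9.0 on the FHL1 deletion arrays, 8.70 and 9.05 on the double deletion arrays and 10.16 and 10.20 on the WT arrays. Both mutants were about 1 unit or more below WT on every array, with -1.10 (standard error 0.16, adjusted p = 0.0057) for the FHL1 deletion and -1.31 (standard error 0.16, adjusted p = 0.00425) for the double deletion. RPL27B had 10.72 and 10.47 on the FHL1 deletion arrays, 10.005 and 10.49 on the double deletion arrays and 11.68 and 11.59 on the WT arrays, with -1.04 (standard error 0.19, adjusted p = 0.0123) and -1.39 (standard error 0.19, adjusted p = 0.00616). The other falls of this group were in the double deletion alone, RPL27A at -0.56 (standard error 0.14, adjusted p = 0.0395) and RPL9A at -1.04 (standard error 0.28, adjusted p = 0.0448). RPL9B was the least reproducible gene, with 10.76 and 9.22 on the FHL1 deletion arrays, 9.81 and 10.99 on the double deletion arrays and 10.35 and 10.84 on the WT arrays. The arrays of each mutant lay more than 1 unit apart there, in both mutants with the array of set A as the lower one. RPL30, whose protein blocks splicing of its own transcript, had 12.17 and 11.72 on the FHL1 deletion arrays, 11.49 and 11.99 on the double deletion arrays and 11.995 and 12.09 on the WT arrays, and RPL28, the gene in which cycloheximide resistance arises, had 11.73 and 11.62 on the FHL1 deletion arrays, 11.59 and 11.53 on the double deletion arrays and 11.82 and 11.59 on the WT arrays. Both overlapped WT in the FHL1 deletion and passed in neither comparison. RPL38 (-0.002 and -0.11) did not pass, nor did RPL21A (-0.36 and -0.53) and RPL21B (-0.13 and -0.31).

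Of the 11 genes without a second copy, 2 (RPL25 and RPL32) fell in each mutant, with medians of -0.10 for the FHL1 deletion and -0.27 for the double deletion. Of the 36 genes with a second copy, 11 fell for the FHL1 deletion and 20 for the double deletion, with medians of -0.42 and -0.56. The shares that fell were 18.2% in each mutant for the first class and 30.6% and 55.6% for the second. Among all genes they were 8.42% and 8.46%. The difference between these classes was not tested, and 14 of the 36 come from probe sets with an i or f suffix.

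The 2 copies of a protein could be compared for 18 pairs in which each gene had its own probe set, 16 of RPL genes and the P1 and P2 pairs. In the FHL1 deletion both copies fell in 2 pairs (RPL6 and RPL16), only A passed in 2 (RPL17 and RPP2), only B in 5 (RPL7, RPL22, RPL27, RPL31 and RPL33) and neither in 9. In the double deletion both fell in 7 pairs, only A in 4, only B in 2 and neither in 5. These counts use the brightest probe set of each gene. For RPL7, RPL17, RPL27 and RPL31 the calls differ among the probe sets of a gene, as given below. The B copy had the lower difference in 9 pairs and the A copy in the other 9 in either mutant, so no letter was lower throughout. A call in one copy and none in the other is no test of their difference, and the log2 ratio of B to A on each array is therefore given.

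RPL31B and RPL31A encode nearly the same protein, yet the ratio of B to A was -1.62 and -1.49 on the FHL1 deletion arrays, -1.10 and -1.22 on the double deletion arrays and -0.55 and -0.58 on the WT arrays. It was well under WT on every mutant array. RPL31A itself had 13.05 and 12.91 on the FHL1 deletion arrays, 12.62 and 12.97 on the double deletion arrays and 13.35 and 13.57 on the WT arrays, with differences of -0.48 (standard error 0.14, adjusted p = 0.0527) for the FHL1 deletion and -0.66 (standard error 0.14, adjusted p = 0.0241) for the double deletion. For RPL22 the B to A ratio was -4.45 and -4.47 on the FHL1 deletion arrays, -4.70 and -4.41 on the double deletion arrays and -3.45 and -3.49 on the WT arrays, lower in both mutants by about 1 unit. RPL22A itself did not pass (-0.11 and -0.22). For RPL27 it was -1.22 and -1.36 on the FHL1 deletion arrays, -1.73 and -1.19 on the double deletion arrays and -0.77 and -0.50 on the WT arrays, and for RPL33 it was -1.71 and -1.60 on the FHL1 deletion arrays, -1.89 and -1.86 on the double deletion arrays and -0.95 and -1.07 on the WT arrays. In both pairs the mutant ratios lay under both WT ratios. The RPL6 ratio, also lower in both mutants, was 1.18 and 1.02 on the FHL1 deletion arrays, 1.07 and 0.93 on the double deletion arrays and 1.58 and 1.51 on the WT arrays, and the RPL7 ratio was -2.22 and -1.94 on the FHL1 deletion arrays, -1.75 and -1.84 on the double deletion arrays and -1.44 and -1.56 on the WT arrays. The direction for RPL7 holds for the brightest probe sets only, and with the further probe sets of these genes RPL7A had the lower differences.

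Other pairs ran in the opposite direction. The ratio of RPP2B to RPP2A was 0.84 and 1.12 on the FHL1 deletion arrays, 0.77 and 0.54 on the double deletion arrays and 0.35 and 0.18 on the WT arrays, higher in both mutants and highest in the FHL1 deletion. The ratio of RPL15B to RPL15A was -1.63 and -1.65 on the FHL1 deletion arrays, -0.92 and -1.39 on the double deletion arrays and -1.72 and -2.12 on the WT arrays. RPL15B had 10.66 and 10.47 on the FHL1 deletion arrays, 10.88 and 10.89 on the double deletion arrays and 10.73 and 10.53 on the WT arrays, and its double deletion arrays were above the others, at 0.25 from WT (adjusted p = 0.269), whereas RPL15A gave -0.52 (adjusted p = 0.0828). For RPL37 the ratio was -0.15 and -0.27 on the FHL1 deletion arrays, -0.13 and -0.41 on the double deletion arrays and -0.47 and -0.76 on the WT arrays, with RPL37A at -0.31 and RPL37B at 0.09 in the FHL1 deletion. For RPL16 it was -0.51 and -0.49 on the FHL1 deletion arrays, -0.53 and -0.28 on the double deletion arrays and -0.79 and -0.56 on the WT arrays, slightly above WT in both mutants although both copies fell. Ratios of the mutant arrays did not overlap those of WT in 13 of the 18 pairs for the FHL1 deletion (7 lower, 6 higher) and in 15 for the double deletion (8 lower, 7 higher). Of single genes, 29.5% lay lower and 34.1% higher with no overlap for the FHL1 deletion, and 29.4% and 31.5% for the double deletion. No test was made of these ratios.

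**Figure D3:**
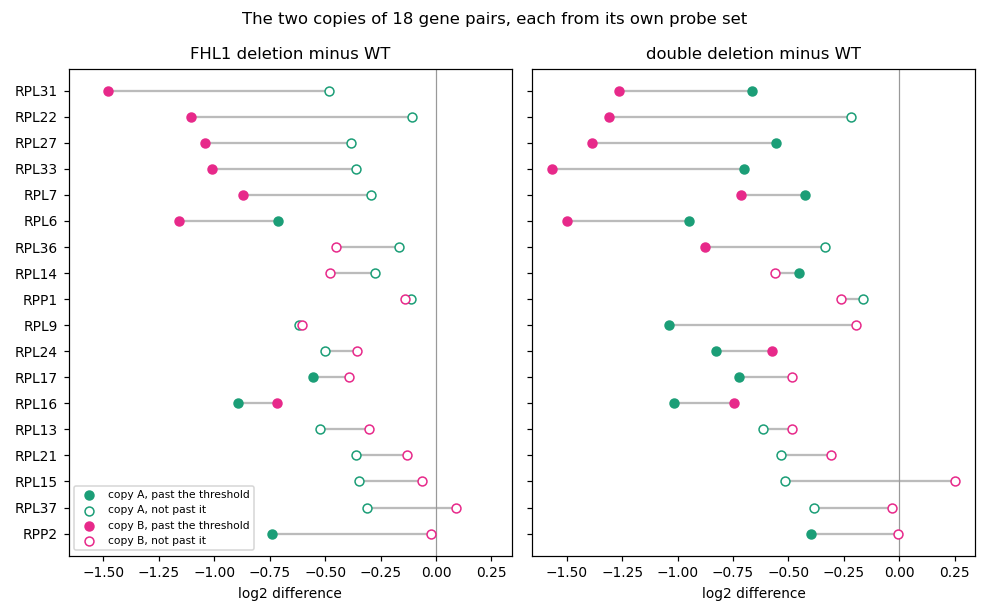
Log2 difference from WT (horizontal axis) of copy A (green) and copy B (pink) of 18 gene pairs (rows), in the FHL1 deletion on the left and the double deletion on the right. Filled circles passed the test and open circles did not. RPL31, RPL22, RPL27, RPL33, RPL7 (by its brightest probe sets, with the further ones turned) and RPL6 have the B copy lower in both mutants, and RPP2, RPL37 and RPL15 the A copy.

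Several genes had more than 1 probe set of their own, and these did not always give the same size. For the 8 such genes the brightest was used, and 11 further probe sets were left. For RPL31B the further 2 gave -1.18 and -1.11 for the FHL1 deletion and -1.38 and -1.34 for the double deletion, against -1.48 and -1.26 above. They passed in both mutants, but the order of the mutants turned. The double deletion differed from the FHL1 deletion by 0.22 on the probe set used and by -0.21 and -0.23 on the further 2. For RPL31A the probe set used gave -0.48 and -0.66 and passed in the double deletion alone. The further one gave -0.57 and -0.88 and passed in both mutants (adjusted p = 0.0261 and 0.0101 over all probe sets). For RPL17B the probe set used gave -0.39 and -0.48 and did not pass, whereas another gave -1.13 and -1.37 (adjusted p = 0.00423 and 0.00402 over all probe sets). For RPL7A the probe set used gave -0.29 and -0.43, and another, at 6.71 and 6.08 on the FHL1 deletion arrays, 6.51 and 6.998 on the double deletion arrays and 8.01 and 8.89 on the WT arrays, gave -2.06 and -1.70. The third RPL7A probe set gave -0.59 and -0.82. For RPL7B, which was called at -0.87 and -0.72, the further probe set gave -0.19 and -0.19, overlapped WT in both mutants and did not pass (adjusted p = 0.499 and 0.513). For RPL27A, called in the double deletion, it gave -0.20 and -0.41, also with overlap and no call. For RPL17A, called at -0.55 and -0.73, the further probe set gave -0.44 and -0.56. It did not overlap WT but did not pass (adjusted p = 0.107 and 0.065 over all probe sets). The values or calls of RPL7A, RPL7B, RPL17A, RPL17B, RPL27A, RPL31A and RPL31B therefore depend on the probe set taken. With probe sets averaged per gene, 16 genes were lower for the FHL1 deletion and 22 for the double deletion.

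Probe sets that name both genes of a pair were tested among 5124 probe sets that name 1 or more genes. Of the 37 pair probe sets tested, 7 were lower in the FHL1 deletion and none higher (10.1% and 11.5% of all probe sets). In the double deletion 10 were lower and none higher (8.33% and 8.16% of all probe sets). The medians were -0.22 and -0.46. The share in the FHL1 deletion is 18.9% and in the double deletion 27.0%. The 7 belong to RPL12, RPL8, RPL9, RPL34 and RPL2, and the 10 to RPL12, RPL9, RPL34, RPL2, RPL8, RPL19 and RPL40. These counts depended on single arrays. In the FHL1 deletion there were 3 without its second array, 1 without the first WT array, 2 without the second, 3 with no filter, 4 with the experiment number as a block and 14 with array set as a block. In the double deletion there were 5 without its first array, 3 without the first WT array, 3 without the second, 5 with no filter and 20 with array set as a block.

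All 3 probe sets of RPL12A and RPL12B, the stalk base, were lower in both mutants. The one with the lowest difference had 11.51 and 11.64 on the FHL1 deletion arrays, 11.31 and 11.48 on the double deletion arrays and 12.94 and 12.98 on the WT arrays, with every mutant array far under WT. Its differences were -1.38 (standard error 0.12, adjusted p = 0.00278) for the FHL1 deletion and -1.57 (standard error 0.12, adjusted p = 0.0019) for the double deletion. The other RPL12 probe sets gave -0.89 and -0.87 for the FHL1 deletion, whereas the double deletion had -1.21 and -1.12. RPL9A and RPL9B together had 11.63 and 11.44 on the FHL1 deletion arrays, 11.20 and 11.46 on the double deletion arrays and 12.31 and 12.21 on the WT arrays, with -0.72 (standard error 0.14, adjusted p = 0.0177) and -0.92 (standard error 0.14, adjusted p = 0.012). This probe set was more even between arrays than that of RPL9B alone. RPL2A and RPL2B, which encode the protein uL2 beside the peptidyl transferase centre, had 13.40 and 13.21 on the FHL1 deletion arrays, 13.11 and 13.21 on the double deletion arrays and 13.72 and 13.87 on the WT arrays, with -0.49 (standard error 0.11, adjusted p = 0.0252) and -0.63 (standard error 0.11, adjusted p = 0.0155). RPL34A and RPL34B had 3 probe sets, of which 1 passed in the FHL1 deletion at -0.55 and 2 in the double deletion at -0.95 and -0.64.

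The remaining pairs gave smaller or mixed differences. RPL4A and RPL4B, of a protein with a long loop in the tunnel wall, had 12.59 and 12.58 on the FHL1 deletion arrays, 12.59 and 12.49 on the double deletion arrays and 12.46 and 12.42 on the WT arrays on their brightest probe set. The mutant arrays were above WT there by 0.14 for the FHL1 deletion and 0.09 for the double deletion, and no RPL4 probe set passed. RPL43A and RPL43B gave 0.01 and -0.06 on the brightest of 3 probe sets, and RPL26A and RPL26B gave -0.09 and -0.17. The 3 probe sets of RPL8A and RPL8B did not give the same size, at -0.90, -0.48 and -0.22 in the FHL1 deletion, with a call for the first alone. In the double deletion they gave -0.88, -0.57 and -0.17, with a call for the second alone. RPL19A and RPL19B gave -0.40 for the FHL1 deletion (adjusted p = 0.0826) and -0.63 for the double deletion (adjusted p = 0.0301). RPL42A and RPL42B, of a protein tied to cycloheximide resistance, gave -0.16 and -0.50 and did not pass. RPL1A and RPL1B, of the mobile stalk at the exit site, gave -0.12 and -0.17. The 3 probe sets of RPL11A and RPL11B, partners of RPL5 on the 5S rRNA, ranged from -0.41 to 0.09 for the FHL1 deletion and from -0.48 to 0.03 for the double deletion, and none passed. RPL40A and RPL40B, which are made as fusions to ubiquitin, passed on 1 of 3 probe sets, in the double deletion at -0.77 (adjusted p = 0.0249). RPL41A and RPL41B, whose product is a very short peptide, lay near the floor on every array (5.63 to 6.35) and were not tested.

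**Figure D4:**
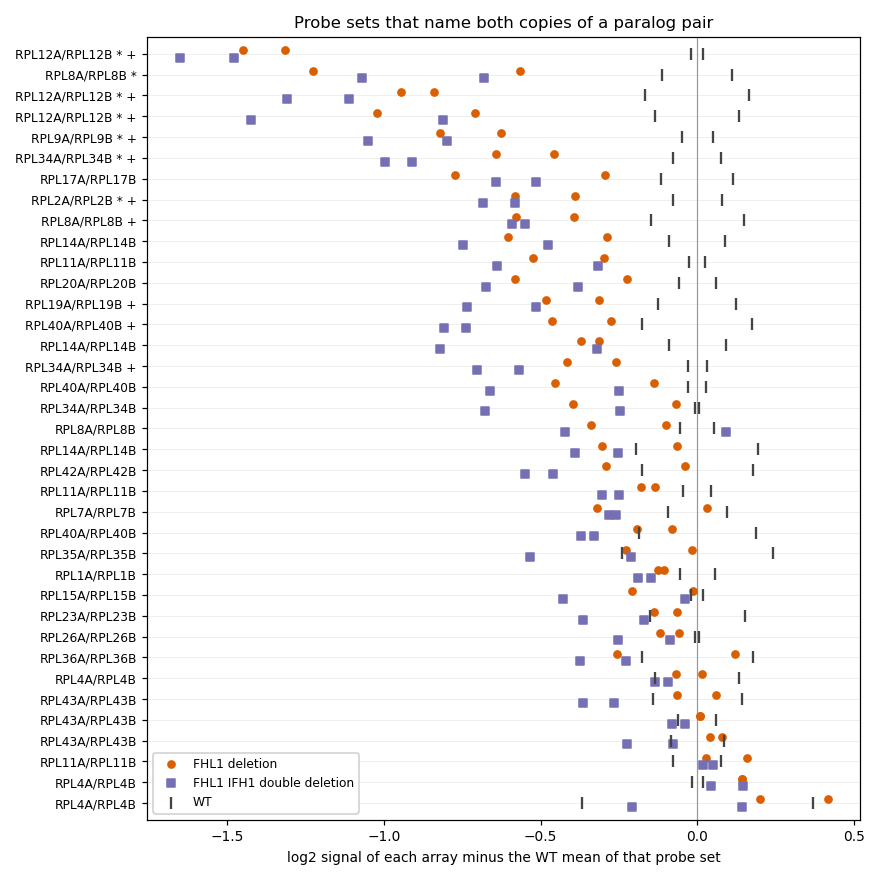
Log2 signal of each array minus the WT mean of the same probe set (horizontal axis) for the 37 probe sets tested that name both genes of a pair (rows, ordered by the difference between the FHL1 deletion and WT). Orange circles are the FHL1 deletion, purple squares the double deletion and vertical ticks WT; an asterisk marks those lower for the FHL1 deletion (7) and a plus sign those lower for the double deletion (10). The 3 probe sets of RPL12 are among the upper rows, far left of WT, and in the FHL1 deletion those of RPL4 and RPL43 overlap WT or lie above it.

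The 2 sets share no array, so the change within set A and that within set B come from separate arrays. They are not like for like. In set B the mutant arrays had high MFA1 and the WT array low MFA1, so deletion and mating type cannot be told apart there. For the FHL1 deletion, 38 of the 47 genes were below WT in both sets, 1 was above in both and 8 were mixed. The changes in the 2 sets correlated at 0.80 (Pearson, across 47 genes, which are not independent replicates). For the double deletion, 41 were below in both, 2 above in both and 4 mixed, and the correlation was 0.84. RPL9B stood off in the FHL1 deletion, at -1.13 in set A and -0.08 in set B. RPL9A did so in the double deletion, at -1.62 in set A and -0.46 in set B.

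**Figure D5:**
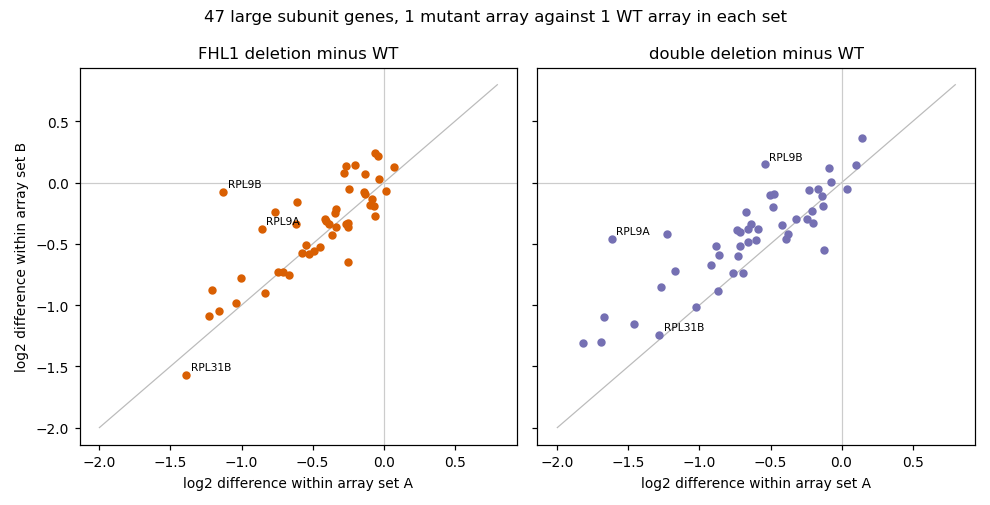
Log2 difference from WT of the 47 genes within array set A (horizontal axis) and within array set B (vertical axis), each from 1 mutant and 1 WT array, for the FHL1 deletion (left) and the double deletion (right). The line marks equal change. In set B the mutant arrays had high MFA1 and the WT array low MFA1, and in set A all had low MFA1. Most genes lie below 0 in both sets (38 and 41), RPL9A and RPL9B stand off the line, and in the double deletion the set A medians are lower (-0.63, against -0.40 in set B).

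The double deletion was compared with the FHL1 deletion to see what the further loss of IFH1 adds. None of the 47 genes passed, with a lowest adjusted p of 0.95, and neither did any of the 37 pair probe sets. By limma without adjustment, p was under 0.05 for 4 of the 47 genes that were lower and 1 that was higher (3.11% and 1.91% of all genes). Of all genes only IFH1 passed, as lower (0.0236% of genes and 0.0195% of probe sets lower, 0% of genes and 0.0390% of probe sets higher). The members were lower in the double deletion more often than not, 38 below and 9 above, with a median of -0.17 against -0.02 over all genes. The median standard error of a gene's difference was 0.14, so shifts of this size in 1 gene were not detectable with these arrays. The shift depended on single arrays, most on the first double deletion array. Without it the members had a median of -0.024 and all genes -0.034, so that the members were 0.01 above all genes, with 26 below 0 and 21 above. Without the second double deletion array the members' median was -0.32. Without the first FHL1 deletion array it was -0.08, against -0.04 over all genes. Within set A the median was -0.19 with 37 of the 47 genes below 0, against -0.02 over all genes. Within set B, which lacks the first double deletion array, it was -0.10 with 32 below, also against -0.02. In both sets 31 genes were below 0, 9 were above in both and 7 were mixed.

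The lowest difference between the mutants was that of RPL33B, which had 9.67 and 10.03 in the double deletion, against 10.36 and 10.45 in the FHL1 deletion, at -0.56 (standard error 0.16, adjusted p = 0.95). RPL25 followed with 10.75 and 10.98 in the double deletion, against 11.25 and 11.45 in the FHL1 deletion, at -0.48 (standard error 0.15, adjusted p = 0.95), and RPL36B with 10.50 and 10.58 in the double deletion, against 10.81 and 11.13 in the FHL1 deletion, at -0.43 (standard error 0.15, adjusted p = 0.95). In these 3 genes the double deletion arrays lay under those of the FHL1 deletion. RPL9B had the highest difference, with 9.81 and 10.99 in the double deletion, against 10.76 and 9.22 in the FHL1 deletion, at 0.41 (standard error 0.54, adjusted p = 0.999), but its groups overlapped. RPP2A was also higher, with 12.61 and 12.69 in the double deletion, against 12.39 and 12.24 in the FHL1 deletion, at 0.34 (standard error 0.11, adjusted p = 0.95). So was RPL15B, with 10.88 and 10.89 in the double deletion, against 10.66 and 10.47 in the FHL1 deletion, at 0.32 (standard error 0.14, adjusted p = 0.982). The arrays of the double deletion lay under those of the FHL1 deletion for 15 of the 47 genes, against 19.0% of all genes.

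Of 33 small subunit genes tested, 13 were lower for the FHL1 deletion and 17 for the double deletion, with medians of -0.33 and -0.42, and none was higher. Genes of the mitochondrial large subunit, which is built from other proteins (33 tested), gave 3 and 13 falls with medians of -0.34 and -0.52. The shares that fell were 39.4% and 51.5% for the small subunit and 9.09% and 39.4% for the mitochondrial genes. Among all genes they were 8.42% and 8.46%. The differences between these lists and the large subunit were not tested. Among regulators of ribosomal protein promoters, 8 of 11 were tested and none but IFH1 passed. RAP1 differed by -0.37 and -0.06, HMO1, an architectural protein at these promoters, by -0.33 and -0.30, and SFP1, an activator of ribosome genes, by 0.18 and 0.37, in the FHL1 deletion and the double deletion.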

How the data were processed

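The deposited table holds a log2 value for each of 9335 probe sets on each array. That the deposited values are log2 was read from their range. Their summarization, background correction and normalization are not stated. Symbols came from the platform annotation, updated through gene identifiers: 6504 probe sets named 1 gene, 328 several and 2503 none. The reference annotation gave names and gene neighbours only, and no coordinate or sequence is printed.

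Each array was centred on the median of the probe sets naming 1 gene. Values below the 10th percentile (5.63) were set to it, and the dimmest 25% of genes were dropped, which left 4242 genes, all 47 members among them, and 5124 probe sets naming 1 or more genes. The brightest probe set stood for a gene. Differences, standard errors and p-values came from limma 3.58.1 in R 4.3.3 (lmFit, then eBayes with a trend, 1 mean per group over 6 arrays, 3 residual degrees of freedom), adjusted by Benjamini and Hochberg over the whole table. The fit was run on 1 simulated data set with independent errors. That data set held no array sets and no mating type difference, so it does not give the share of false calls in these arrays. No set test was run. The number of arrays limits the precision.

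Members, role lists and tests were chosen with earlier results of these data known. Any member could be named, with values on all arrays for the largest falls, paralogs, single-copy genes and pair probe sets. Further probe sets and neighbouring genes were named after their values were seen. Of the 81 genes, 2 are not reported here.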

Additional observations from a re-analysis of the deposited data

How the results depend on the processing

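The member median kept its sign under all 21 alternatives in the 3 comparisons. Relative to the median of all genes it turned between the mutants without the first double deletion array, to 0.01, against -0.15 with all arrays. No single gene or pair probe set past the threshold changed sign. Of the 13 and 22 genes lower in the FHL1 deletion and the double deletion, 5 (RPL6B, RPL7B, RPL16A, RPL22B and RPL31B) and 7 (RPL6B, RPL16A, RPL22B, RPL25, RPL27B, RPL31B and RPL33B) kept their call under all 20 alternatives run for single genes, none of which takes the further probe set of RPL7B alone. Quantile normalization moved the medians to -0.19 and -0.31. With no filter on dim genes, which tests more genes, 10 genes fell in the double deletion, and 3 and 5 pair probe sets in the FHL1 and double deletions. With array set as a block the counts were 26 and 35 genes and 14 and 20 pair probe sets. The experiment numbers do not pair the arrays: deviations from group means correlated at -0.63, -0.38 and 0.42 between same-numbered arrays. Between arrays of the same set they correlated at 0.63, 0.38 and 0.42. With 2 arrays per group the choice of match can change only the sign. The main test used neither match. With the experiment number as a replicate block 9 and 15 genes and 4 and 7 pair probe sets fell. Over the 4 arrays with low MFA1 (chosen after seeing the data, 1 array per mutant, assumed to vary like WT) the counts were 20 and 31 genes and 8 and 16 pair probe sets, and the double deletion median was -0.64. Leaving out each array in turn gave 6 to 17 and 7 to 24 genes, 1 to 7 and 3 to 12 pair probe sets, and medians from -0.38 to -0.28 and from -0.64 to -0.37. Between the mutants that median ran from -0.32 (without the second double deletion array) to -0.024 (without the first), and no member passed under any alternative. With centring over 1 probe set per gene (also chosen afterwards) 17 and 25 genes fell, and among members with the plain suffix 9 and 12 of 33. Below 0 were 44 and 44 genes, against 33 and 38 after quantile normalization. The causes were not tested.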

Other observations

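Genes that lie directly beside a large subunit gene in the reference annotation were also read on the arrays. Of 56 such neighbours tested, none of them a cytosolic ribosomal protein gene, 9 were lower and 6 higher in the FHL1 deletion (median -0.09). In the double deletion 7 were lower and 6 higher (median -0.04). The lower ones are 16.1% and 12.5% of the neighbours, against 8.42% and 8.46% of all genes. Higher were 12.9% and 9.78% of all genes. The 47 members had medians of -0.36 and -0.49. RPL25, which fell in both mutants, lies beside MDH2, the gene of cytosolic malate dehydrogenase, which differed by 1.23 and 1.69 in these mutants. RPL32 lies beside ROX3, a Mediator subunit gene, at 0.54 and 0.58. RPL9A lies beside ARO2, an aromatic amino acid gene, at -1.004 and -1.03.

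Some small nucleolar RNA genes were among the lowest neighbours. SNR39, which lies within an intron of RPL7A, gave -1.70 for the FHL1 deletion and -1.80 for the double deletion. The brightest probe set of RPL7A itself gave -0.29 and -0.43. Its further probe sets gave -2.06 and -1.70, and -0.59 and -0.82, so the contrast with SNR39 depends on the probe set taken. SNR13, beside RPL27B, gave -1.42 and -1.39, and SNR11, beside RPL36A, gave -1.27 and -1.02. SNR63, beside RPL31A, gave -0.62 and -0.79 and passed in neither mutant. These genes were named after their values were seen.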
